A study of Arabidopsis thaliana with 6 samples.

Results

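The CBF regulators and the cold-regulated COR genes of Arabidopsis thaliana were followed in rosette leaves of plants raised with and without added nitric oxide (NO). The 10 genes were chosen by locus and are CBF1 (AT4G25490), CBF2 (AT4G25470), CBF3 (AT4G25480), COR15A (AT2G42540), COR15B (AT2G42530), COR47 (AT1G20440), ERD10 (AT1G20450), KIN1 (AT5G15960), KIN2 (AT5G15970) and RD29A (AT5G52310). They are 10 of 25383 genes matched to the array, and 15 probes on 20 spots report on them. All 10 were bright enough to be tested.

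Wild-type plants were grown on soil with sand at 20 °C by day and 16 °C by night, at 80% relative humidity. One group of 3 samples received ambient air and the other group of 3 received ambient air with 3 ppm NO added, at all hours until harvest at 4 weeks. Seeds of both groups had been kept at 4 °C in the dark for at least 72 hours before they entered the chambers, and the labels name no other cold exposure. RNA of whole rosette leaves was labelled with Cy3 and hybridised to 6 one-colour Agilent arrays. The labels speak of 3 independent biological experiments, and the NO content of the ambient air and the hour of harvest were not given in the sources used here.

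CBF proteins are transcription factors of the DREB1 group that bind the C-repeat element in the promoters of their targets. Cold induces the CBF genes within a short time, the circadian clock gates their expression, and their products then switch on the COR genes. COR proteins are mostly small, hydrophilic proteins of the late embryogenesis abundant (LEA) kind that protect membranes and proteins when cells lose water by freezing or drought. Several COR genes also respond to abscisic acid (ABA), the drought hormone, through separate promoter elements.

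Each array held 61657 gene spots, and 65.2% to 66.8% of them were well above background in the ambient group against 68.5% to 72% in the NO group. No spot of the 10 genes was saturated or marked as an outlier. The ambient arrays shared one slide and one scan, and the NO arrays shared another slide and scan, which means that an effect of slide or scan cannot be told apart from one of NO. Of 4 leaf markers, RBCS1A, CAB2, CA1 and RCA were each well above background on all 6 arrays. All 5 seed markers and 3 of 4 root markers were not well above background on any array. Flower markers were seen, 4 of 4 of them on every array, at a summed level of 0.575 to 0.7 times the array's 75th percentile in ambient air and 0.689 to 0.764 times in NO. Of these floral organ identity genes, PI and AP3 passed in limma, both at 0.43 on the log2 scale (adjusted p = 0.00923 and 0.0372), with groups that overlapped for AP3. AG and SEP3 did not pass, at -0.20 (adjusted p = 0.0956) and -0.27 (adjusted p = 0.103), and the median of the 4 was 0.12. The 3 guard cell markers fell, MYB60 at -0.33, KAT1 at -0.19 and FAMA at -0.67 (adjusted p = 0.00139, 0.0468 and 0.000573 in limma). Among all tested genes 32.4% passed as lower. The summed level of the guard cell markers was 3.74 to 3.89 in ambient air and 2.88 to 2.94 in NO. What share these cell types had in the results below was not tested.

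Of the 10 genes, 8 rose in 3 ppm NO at an adjusted p under 0.05 and none fell, in limma's fit over all genes. Among all 18614 tested genes, 58.2% passed in either direction, 25.8% passed as higher and 32.4% as lower. The median log2 change of the 10 was 0.78, beside -0.05 over all tested genes. At an unadjusted p under 0.05, too, 0 members fell. In 9 of the 10 the 3 NO arrays lay above the 3 ambient arrays, which was so in 29% of all tested genes, and in 66.7% the groups were apart in either direction. Changes of at least 2-fold were reached by CBF1, COR15A and COR15B, and 4.98% of all tested genes rose that far and passed.

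**Figure D1:**
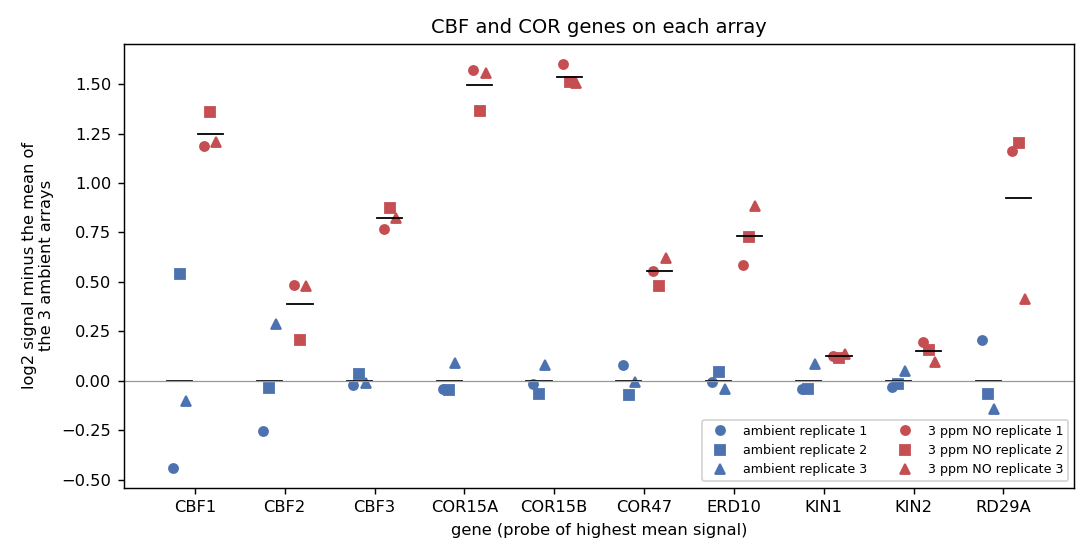
Log2 signal of each CBF and COR gene on each of the 6 arrays, with the mean of the 3 ambient arrays set to 0. Points are arrays, marked by replicate, and bars are group means. NO arrays lie above all ambient arrays in every gene except CBF2, and the step ranges from 0.12 for KIN1 to 1.54 for COR15B.

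Levels are given as log2 signal relative to the 75th percentile of the array, so 0 is a spot as bright as that percentile. Signals of different probes depend on the probe as well as on the transcript and are not compared with each other. The CBF regulators come first, followed by the COR genes in the order of their protein families.

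CBF3, also named DREB1A, gave the most even values of the CBF genes. Its level was -0.25, -0.19 and -0.23 in ambient air and 0.54, 0.65 and 0.60 under NO. The groups were well apart and each array lay close to the others of its group. CBF3 rose by 0.82 ± 0.05 in log2 units (SE, with 3 arrays a group), or 1.77-fold, with an adjusted p of 3.39e-05 in limma. That change exceeded those of 92.7% of all tested genes. The estimate lay between 0.76 and 0.88 under all 17 alternatives, and all of them kept it past the threshold.

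CBF1, also named DREB1B, was dim in both groups. Its signal before scaling was 29.1, 54.8 and 34.8 in ambient air and 73.2, 152 and 87.6 under NO, and the scanner software still marked each of these spots as well above background. On the log2 scale the levels were -4.91, -3.93 and -4.58 in ambient air and -3.29, -3.12 and -3.26 in NO. The ambient arrays differed among themselves far more than the NO arrays did (SD 0.50 and 0.09), but the groups did not overlap. CBF1 rose by 1.25 ± 0.23 (2.38-fold, 95% interval 0.70 to 1.80, adjusted p = 0.00368 in limma). With normexp the change was 0.47, with an adjusted p of 0.00342. That setting changed the background correction, took the median spot signal and added an offset of 50 to every signal, which by itself shrinks the fold of a probe this dim, and the parts were not run separately.

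CBF2, also named DREB1C, is known to act partly as a brake on the other CBF genes. Its level was -3.22, -3.01 and -2.68 in ambient air and -2.49, -2.77 and -2.49 under NO. Ambient replicate 3 was brighter than NO replicate 2, so the groups overlapped. The change of 0.39 ± 0.15 (95% interval 0.04 to 0.74) had an adjusted p of 0.0581 in limma and did not pass. It passed without ambient replicate 3 (change 0.53, adjusted p = 0.0132) and without NO replicate 2 (change 0.48, adjusted p = 0.0469). With all arrays kept, it passed among genes well above background on all 6 arrays (adjusted p = 0.0452) and with a trend in the prior variance (0.0298).

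The CBF genes stand side by side on chromosome 4 in the order CBF1, CBF3 and CBF2, with no other protein-coding gene between neighbours in the RefSeq table. How much signal each probe takes from the related transcripts was not tested. The ratio of one probe to another within an array does not change when all signals of the array are multiplied by one factor, so it was used to ask whether neighbours changed alike. The log2 ratio of CBF1 to CBF2 was -1.69, -0.93 and -1.89 in ambient air and -0.80, -0.35 and -0.77 under NO, a shift of 0.86 ± 0.33 (SE). The groups did not overlap, and the exact two-sided permutation test gave 0.1, the smallest p that 3 arrays against 3 can give, or 0.233 adjusted over the 7 pairs compared. The shift was -0.43 ± 0.20 for CBF2 against CBF3 (exact p = 0.1, adjusted 0.233), also with groups apart. It was 0.43 ± 0.27 for CBF1 against CBF3 (exact p = 0.4, adjusted 0.56), where the groups overlapped. With this number of arrays no pair could pass. The ratios were not independent of the processing. With the normexp setting the shift was 0.23 ± 0.14 for CBF1 against CBF2 and turned to -0.29 ± 0.16 for CBF1 against CBF3, while CBF2 against CBF3 was at -0.52 ± 0.18.

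The further DREB1 genes were at the edge of detection. DDF2 was well above background on 3 of 3 NO arrays and 0 of 3 ambient arrays, so it was tested only through the group in which it was brighter, and its count as a gene that rose supports no difference. Set against the lowest signals well above background it was at least 1.43-fold higher in NO, a bound that holds for the processed signal alone. DDF1 was at -0.61 ± 0.16, with 3 of 3 ambient arrays and 2 of 3 NO arrays well above background. It too was tested only through its brighter group, and its count as a gene that fell supports no difference. CBF4, which is known to respond to drought and ABA, was at -0.16 ± 0.25 (adjusted p = 0.609). It was well above background on 2 of 3 ambient arrays and 3 of 3 NO arrays. With normexp neither DDF gene passed in limma, at changes of 0.18 for DDF2 (adjusted p = 0.247), which is less than that bound, and -0.25 for DDF1 (adjusted p = 0.111).

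COR15A and COR15B had the smallest adjusted p among the 10 genes. Both encode LEA proteins of the chloroplast stroma that stabilise chloroplast membranes during freezing. COR15A was at 0.53, 0.53 and 0.67 in ambient air and at 2.15, 1.94 and 2.13 under NO. COR15B was at -0.05, -0.10 and 0.04 in ambient air and at 1.57, 1.47 and 1.47 in NO. In both genes the gap between the groups was many times the spread within a group. COR15A rose by 1.496 ± 0.08 (2.82-fold, 95% interval 1.32 to 1.68, adjusted p = 1.59e-05 in limma). COR15B rose by 1.54 ± 0.06 (2.90-fold, 95% interval 1.40 to 1.68, adjusted p = 5.97e-06), and its change exceeded those of 98.3% of tested genes.

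The ratio of these neighbours on chromosome 2 did not shift beyond its spread. The log2 ratio of COR15A to COR15B was 0.59, 0.63 and 0.62 in ambient air and 0.58, 0.46 and 0.66 under NO. The groups overlapped, and the shift was -0.04 ± 0.06 (SE, exact permutation p = 0.6). Each gene has 1 probe on the array, and how far each probe binds the transcript of the other was not tested. Under all 17 alternatives COR15A stayed between 1.42 and 1.56 and COR15B between 1.49 and 1.59.

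COR47 and ERD10 are neighbours on chromosome 1 and encode acidic dehydrins, proteins that bind water and membrane surfaces in drying cells. COR47 was at 5.64, 5.49 and 5.55 in ambient air and at 6.11, 6.04 and 6.18 under NO with its brightest probe. It rose by 0.55 ± 0.06 (1.47-fold, adjusted p = 0.000447 in limma). Its other probes gave changes of 0.53 ± 0.06 and 0.73 ± 0.06, and on all 3 probes the groups were apart. With quantile normalization the brightest probe moved to 0.18 and did not pass (adjusted p = 0.0634), while the dimmer probes stayed at 0.47 and 0.71 and passed (adjusted p = 0.00117 and 0.000161, computed after the data had been seen).

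ERD10, also known as LTI29, was at 4.07, 4.12 and 4.03 in ambient air and at 4.66, 4.80 and 4.96 in NO with its brightest probe. All NO arrays were higher, and they spread more widely than the ambient arrays (SD 0.15 and 0.04). ERD10 rose by 0.73 ± 0.08 (1.66-fold, adjusted p = 0.000415 in limma). The other probe of ERD10 was at 3.29, 3.22 and 3.19 in ambient air and at 4.20, 4.24 and 4.27 in NO, a change of 1.01 ± 0.05 or 2.01-fold. The ratio of COR47 to ERD10 shifted by -0.18 ± 0.10 with groups that overlapped (exact permutation p = 0.2).

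KIN1 and KIN2 moved little. They encode short, closely related proteins rich in alanine, glycine and lysine, and KIN2 is also named COR6.6. KIN1 was at 4.69, 4.69 and 4.81 in ambient air and at 4.85, 4.84 and 4.86 under NO. KIN2 was at 5.43, 5.45 and 5.51 in ambient air and at 5.66, 5.62 and 5.56 in NO. The NO arrays were the higher ones in both genes, but the gap from the nearest ambient array was only a few hundredths on the log2 scale. KIN1 was at 0.12 ± 0.05 (95% interval -0.0036 to 0.25, adjusted p = 0.0858 in limma) and did not pass. KIN2 passed at 0.15 ± 0.05 (1.11-fold, 95% interval 0.03 to 0.27, adjusted p = 0.0433).

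The KIN2 call was the least steady of the 8. It did not pass in the same direction under 12 of 17 alternatives, among them normexp (0.05, adjusted p = 0.422), scaling to the median (0.10, adjusted p = 0.176) and leaving out ambient replicate 1, 2 or 3 or NO replicate 1 or 2, where the adjusted p ran up to 0.124. With quantile normalization KIN2 was called lower, at -0.18 (adjusted p = 0.0238), and KIN1 was at -0.10 (adjusted p = 0.119). KIN1 passed as higher with normexp (0.16, adjusted p = 0.0448) and without ambient replicate 3 (0.17, adjusted p = 0.0413). A further KIN1 probe was dark on all 6 arrays, with no spot well above background. KIN1 and KIN2 are neighbours on chromosome 5, their ratio shifted by -0.03 ± 0.04 (exact permutation p = 0.5), and shared signal between their probes was not tested.

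COR15A was also set against KIN2. The log2 ratio of COR15A to KIN2 was -4.90, -4.92 and -4.85 in ambient air and -3.52, -3.68 and -3.43 under NO. The groups were far apart, with a shift of 1.35 ± 0.08 (SE, exact permutation p = 0.1, adjusted 0.233 over the 7 pairs). This pair was chosen after its values were seen.

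RD29A, also named LTI78 or COR78, carries both C-repeat and ABA-responsive elements and is widely used as a reporter of cold, drought and salt. Its brightest probe was at 2.31, 2.03 and 1.96 in ambient air and at 3.26, 3.30 and 2.51 under NO. All NO arrays were higher, but NO replicate 3 lay well below the other two. RD29A rose by 0.93 ± 0.22 (1.90-fold, 95% interval 0.40 to 1.45, adjusted p = 0.0106 in limma), and leaving out single arrays moved the change between 0.79 and 1.18. Its other probe was at -2.07, -1.996 and -2.35 in ambient air and at -1.18, -1.32 and -0.74 in NO, a change of 1.06 ± 0.17. On that probe NO replicate 3 was the brightest, so the probes disagreed on the order of the NO arrays.

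**Figure D2:**
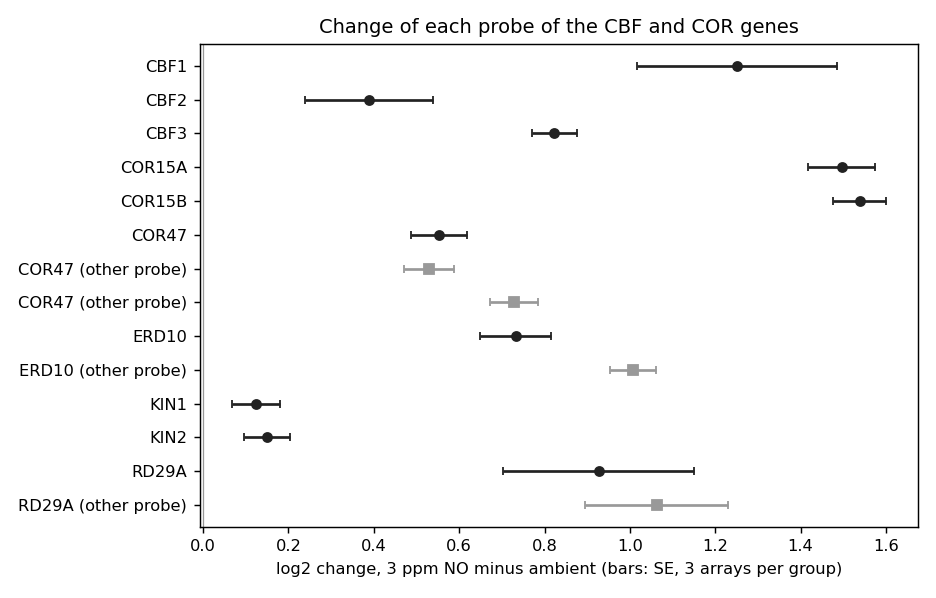
Log2 change from ambient air to 3 ppm NO for every probe of the 10 genes bright enough to be tested, with SE from limma (3 arrays per group). Black circles are the probe of highest mean signal of a gene and grey squares its other probes. All 14 probes lie above 0, COR15A and COR15B at the upper end and KIN1 and KIN2 at the lower end.

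RD29B, a relative of RD29A that depends strongly on ABA, rose by 1.51 ± 0.25 (2.84-fold, adjusted p = 0.00223 in limma), or by 0.70 with normexp. RAB18, an ABA-induced dehydrin gene, was at 0.12 ± 0.05 and did not pass (adjusted p = 0.057). RAB18 passed under 2 of 17 alternatives.

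**Figure D3:**
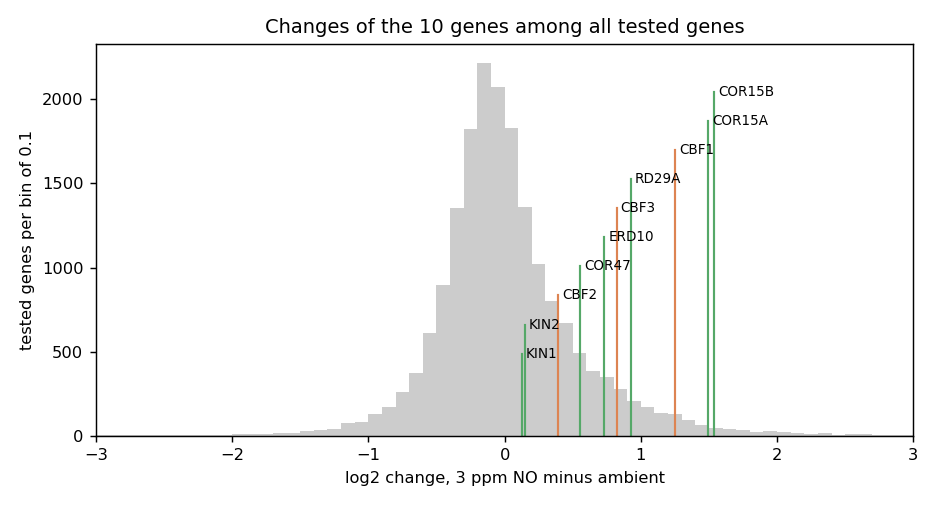
Histogram of the log2 change from ambient air to 3 ppm NO over the tested genes, in bins of 0.1, drawn between -3 and 3, with vertical lines for the CBF genes (orange) and the COR genes (green). Line heights only separate the names. KIN1 and KIN2 lie within the bulk of genes, and COR15A and COR15B in the upper tail.

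The wider cold and ABA network was described with lists of genes outside the 10, which were chosen with earlier results of these data known. Over 6 lists with 79 tested genes, 26 rose, 26 fell and 27 did not pass, with a median log2 change of -0.03. Beside the 58.2% called among all tested genes, 25.8% as higher and 32.4% as lower, such counts are not a result about the lists. The direction in which their members moved varied from list to list, and no difference between lists was tested.

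Other cold-regulated targets mostly rose. Of 18 tested, 12 rose, 1 fell and 5 did not pass, with a median log2 change of 0.37. Among all tested genes 25.8% passed as higher and 32.4% as lower, and the difference was not tested. GOLS3, a galactinol synthase gene for raffinose sugars that CBF proteins are known to induce, rose by 1.94 ± 0.05 (3.84-fold, adjusted p = 1.67e-06 in limma). LTI30, a basic dehydrin gene, rose by 1.60 ± 0.06 (3.04-fold). RCI2A and COR413-PM1, genes of membrane proteins, were 1.92-fold and 1.90-fold higher. The member that fell was RAP2.1, a DREB-type repressor gene of the same pathway, at -0.67 ± 0.05, and it was named after its value was seen.

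Of 8 tested dehydrin and other LEA genes, 4 rose, 1 fell and 3 did not pass, with a median log2 change of 0.25. The share called was 62.5%, beside 58.2% among all tested genes, so the counts are no result about the list. LEA7 rose by 1.46 ± 0.09 (2.75-fold, adjusted p = 3.66e-05 in limma), and LEA14 by 0.54 ± 0.05. HIRD11, a dehydrin gene, rose by 0.84 ± 0.08, or by 0.26 with quantile normalization, and LEA4-5 rose by 0.38 ± 0.09. The member that fell was ERD14, a dehydrin gene related to ERD10 and COR47, at -0.15 ± 0.05 (adjusted p = 0.0425). That call was lost under 10 of 17 alternatives and turned to 0.12 (adjusted p = 0.265) when its probes were averaged. The fall was larger with quantile normalization (-0.59, adjusted p = 0.000103) and with cyclic loess (-0.27, adjusted p = 0.00311). ERD14 was named after its value was seen.

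Transcription factors that cold induces in parallel with the CBF genes mostly fell. Of 10 tested, 2 rose, 7 fell and 1, ZAT12, did not pass (adjusted p = 0.988), with a median log2 change of -0.40. The shares among all tested genes were 25.8% higher and 32.4% lower, and the difference was not tested. HSFC1, a heat shock factor gene, fell by 1.01 on the log2 scale (SE 0.06, 2.01-fold lower, adjusted p = 2.25e-05 in limma). The zinc finger genes AZF2 and ZAT10 were 1.81-fold and 1.48-fold lower. DEAR1, which encodes a repressor of the DREB family, went the other way and rose by 1.04 ± 0.07. The other member that rose was RAV1, an AP2 and B3 domain factor gene, at 0.63 ± 0.07. ZAT12 and RAV1 were named after their values were seen.

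Of 20 tested regulators of CBF transcription, 3 rose, 6 fell and 11 did not pass, with a median log2 change of -0.08. The 45% called stands beside 58.2% among all tested genes, a difference that was not tested. ICE1, the bHLH activator of CBF3, was at -0.07 ± 0.07 (adjusted p = 0.429 in limma), and CAMTA3, a calmodulin-binding activator of CBF2, was at -0.14 ± 0.07 (adjusted p = 0.103). The 4 clearest calls were all of clock genes. LHY and CCA1, morning clock genes whose products activate CBF genes, were 1.97-fold and 1.41-fold lower. PRR9 was 1.49-fold lower, while PRR5 was 2.46-fold higher, and both encode clock repressors that also act on CBF genes. PRR7 of the same list did not pass, at 0.15 ± 0.07 (adjusted p = 0.117 in limma) with groups that overlapped. The 4 called clock genes moved beside the CBF changes, and their part in them was not tested. Among genes named after their values were seen, SOC1 and PIF4, whose products repress CBF genes, rose by 0.51 ± 0.06 and 0.35 ± 0.05. PIF3 and PIF7 of the same list did not pass, both at -0.03 (adjusted p = 0.706 and 0.626 in limma). Nor did MYB15 at -0.43 (adjusted p = 0.0691) and HOS1 at -0.07 (0.435). MPK3 and MPK6, genes of kinases that destabilise ICE1, were 1.39-fold and 1.28-fold lower. With the source-name replicate number as a block, PIF4 (adjusted p = 0.0501) and MPK6 (0.0881) lost their calls. That block left ambient replicate 1 and NO replicate 3 without a partner, so neither array entered the change. EIN3, the ethylene factor gene that represses CBF genes, was at -0.15 ± 0.05 (adjusted p = 0.0413) and lost its call under 9 of 17 alternatives. Without ambient replicate 2 or 3 or NO replicate 1 or 3 its adjusted p ran up to 0.116.

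Genes of ABA synthesis, signalling and response numbered 20. Of these, 4 rose and 10 fell, 6 were not called, and the median log2 change was -0.21. The share called was 70%, beside 58.2% among all tested genes, of which 25.8% passed as higher and 32.4% as lower. The difference was not tested. CYP707A3, which encodes an enzyme of ABA breakdown, was 2.02-fold lower (-1.02 ± 0.11, adjusted p = 0.00039 in limma), or at -0.64 with normexp. The bZIP factor genes ABF2 and ABF1, whose products bind ABA-responsive elements, moved in opposite directions, at -0.77 ± 0.07 and 0.55 ± 0.06. ABF2 was at -0.43 when its probes were averaged. DREB2A, a drought and heat regulator that binds the same core element as CBF proteins, rose by 0.48 ± 0.06, or by 0.79 when its probes were averaged. ABI5, a bZIP factor gene best known from seeds, rose by 0.51 ± 0.09 and was named after its value was seen. ABF1, DREB2A, ABI5 and RD29B were the 4 that rose. The other members that fell were CYP707A1 (-0.76), HAB1 (-0.58), ABI2 (-0.42) and RD26 (-0.32), together with ABF4 (-0.31), ABI1 (-0.29), RD20 (-0.27) and AAO3 (-0.15). These further members were named after their values were seen.

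**Figure D4:**
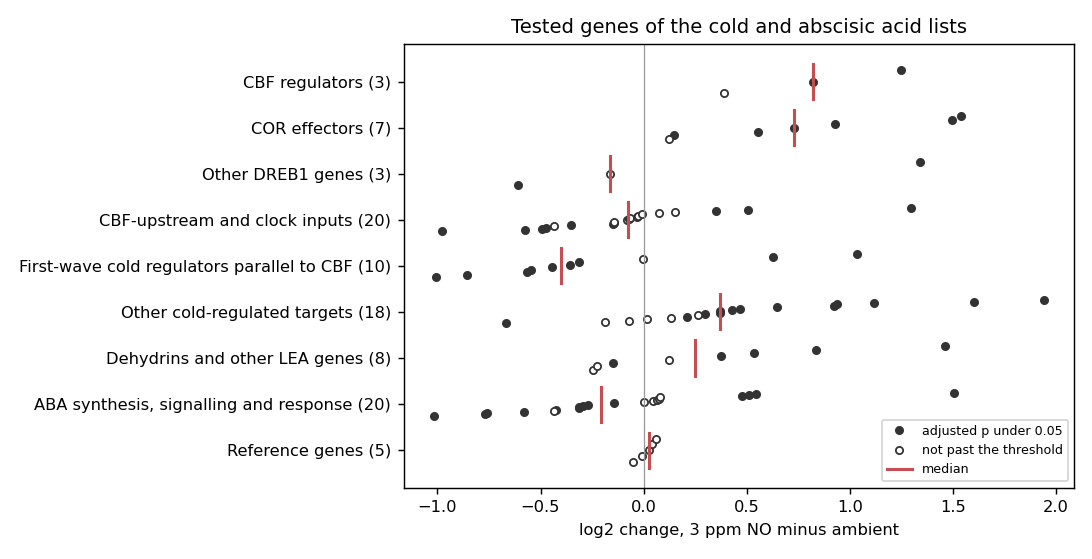
Log2 change from ambient air to 3 ppm NO of each tested gene of the CBF and COR genes, of 6 lists of related genes and of reference genes. Filled points passed an adjusted p of 0.05 in limma, open points did not, red bars are medians, and the number of tested genes is in brackets. Medians lie at 0.82 for the CBF genes, 0.73 for the COR genes and 0.37 for other cold-regulated targets, and at -0.40 for the parallel regulators.

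Of 6 reference genes used to normalise expression in this species, 5 were matched to the array and none passed in limma, with 0 of them at an unadjusted p under 0.05. With cyclic loess normalization 1 of them was called lower. Their changes lay between -0.05 and 0.06 on the log2 scale. The 4 leaf markers all rose and passed in limma, beside 25.8% of all tested genes that passed as higher. The summed level of these markers was 477 to 515 times the 75th percentile in ambient air and 800 to 1010 times in NO. CA1, a chloroplast carbonic anhydrase gene, rose by 3.57 ± 0.08 among them, RBCS1A by 0.97, CAB2 by 1.16 and RCA by 0.42. In whole leaves, more RNA per cell and more cells of a type cannot be told apart, which holds for every gene here.

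Many genes shared the step between the groups. Over the 6 arrays, the profiles most like that of COR15A among 8347 tested genes with a symbol were those of PSBP-1, BBX14 and JAZ6. Their Pearson r was 0.9997, 0.9996 and 0.9995. For CBF3 the most alike were BXL1, GSTF11 and MYB29, with r of 0.9994, 0.9993 and 0.9991. An r above 0.99 was reached by 408 genes for COR15A and by 327 for CBF3. With 2 groups of 3 arrays such a value mostly reflects the step between groups, and the arrays share slide and scan within a group.

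**Figure D5:**
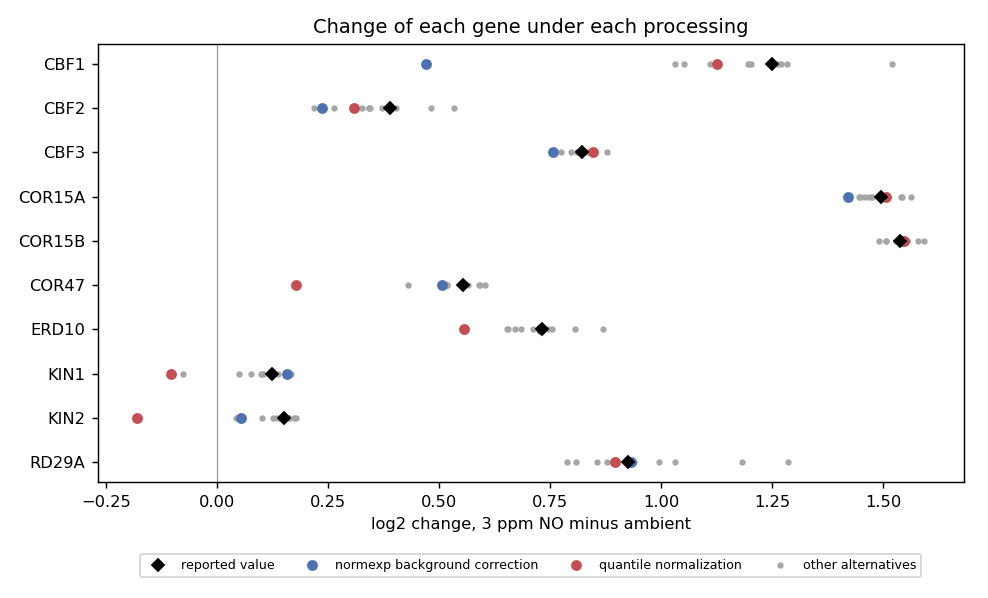
Log2 change of each CBF and COR gene from ambient air to 3 ppm NO as reported (diamonds) and under each alternative processing (circles and dots), with normexp background correction in blue and quantile normalization in red. COR15A, COR15B and CBF3 stay in narrow ranges, CBF1 drops to 0.47 with normexp, COR47 to 0.18 with quantile normalization, and KIN1 and KIN2 fall below 0 with quantile normalization.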

How the data were processed

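Spot intensity in the deposited scanner files is linear and was corrected for background within the array. The software was Agilent Feature Extraction, and per the file headers its version was 10.7.3.1, whereas the submitters' processing notes name 10.5. The series matrix as deposited holds log2 values of the authors, whose scale and centring are not stated; set against the scanner values centred on each probe's median, its columns had Pearson r of 1.00 across 43601 probes, and their medians ran from -0.069 to 0.041. Its direction was taken from the sample columns, and it served as an alternative. Marks of outlier, saturated and well-above-background spots are other values that the scanner software set, per the file headers.

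Each processed signal was divided by the 75th percentile of the gene spots of its array (715 to 1321) and put on the log2 scale. Control and outlier spots were left out and spots of a probe averaged. Of 43603 probes, 34285 matched a locus through the accessions of a RefSeq table for TAIR10.1, which gave 25383 genes, each represented by its probe of highest mean signal. Tested were the genes whose probe exceeded background well on each of the 3 arrays of at least 1 group (18614 genes, 12 of them with a missing array). The comparison used limma 3.58.1 (lmFit, eBayes; R 4.3.3) with two-sided p-values, adjusted over all tested genes by Benjamini and Hochberg and read at 0.05. Values with ± are changes and SE of that fit for genes, and of the same fit over all probes for the other probes of a gene. For pair ratios the SE is that of the difference between group means of the log2 ratio, without limma. Pair ratios used exact permutation tests. The number of arrays limits the precision. A gene dark in a whole group is given as a bound against the lowest signal well above background. The fit was tested on simulated data.

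Members and lists were chosen with earlier results of these data known. Named genes were the 10 members, up to 4 genes of smallest adjusted p per list, CBF4, DDF1, DDF2, RD29B and RAB18, and the 3 profiles most like COR15A and CBF3. The others were named after their values were seen. The normexp alternative used the median spot signal in place of the mean signal and an offset of 50, which shrinks the folds of dim probes. Other alternatives were quantile, median and cyclic loess scaling, the series matrix, filters, probe averages, single probes, replicate blocks, a variance trend and leaving out each array. Promoter motifs were not analysed here.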

Additional observations from a re-analysis of the deposited data

Results flagged for a closer look

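Spike-in control transcripts, which are no genes of the plant, were much brighter on the NO arrays. The brightest of 10 spike-in probes was 49.4-fold brighter on the NO arrays than on the ambient arrays after scaling, and the 5 spike-in probes well above background on all 6 arrays were all brighter on every NO array than on any ambient array. The folds of those 5 ran from 13.2 to 49.4. A further 2 were well above background on the NO arrays only. The spike-in difference is listed as a signal outside the main measurement that differed from the control samples, and its source was not tested.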

How the results depend on the processing

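Of the 10 genes, CBF1, CBF3, COR15A, COR15B, ERD10 and RD29A kept their direction and their call under every alternative run. The number of members called higher ran from 6 with quantile normalization to 9, and over single left-out arrays from 7 to 9. Members called lower were 0 except with quantile normalization, where the count was 1 (KIN2, -0.18). The reversed values were those of KIN1 with quantile normalization (-0.10) and with probes averaged (-0.076), and of KIN2 with quantile normalization (-0.18). The KIN1 average takes in its further probe, which was dark on every array. With probes averaged ERD14 turned to 0.12 and ICE1, which was not called, to 0.10. CBF4, also not called, ran from -0.41 to 0.0072 over single left-out arrays, turning above 0 without ambient replicate 3 (0.0072) and without NO replicate 2 (0.00066). Among the pair ratios, none of which passed, the shift of CBF1 to CBF3 turned to -0.29 with normexp, that of COR15A to COR15B ran from -0.088 to 0.010 over single left-out arrays, turning without NO replicate 2, and that of KIN1 to KIN2 turned to 0.10 with normexp, 0.077 with quantile normalization and 0.0069 with cyclic loess. The shift of COR47 to ERD10 was -0.38 with quantile normalization. That of KIN1 to KIN2 was -0.23 with probes averaged, the dark KIN1 probe among them. These settings for the ratios were chosen after seeing the data. The genes of the pathway lists called higher numbered 23 to 28 and those called lower 22 to 29, against 26 and 26. The cause of these differences was not tested. Whether the replicate numbers in the titles pair arrays across groups is not stated. Same-numbered arrays had correlations of deviations of -0.08, -0.04 and 0.05, and with so few arrays such values cannot settle it. Source names number the NO arrays differently, and their pairs gave 0.02 and -0.12. With the replicate block by title number 10049 genes passed, and with the replicate block by source-name number 7103, against 10830 without. In the source-name block ambient replicate 1 and NO replicate 3 had no partner, so the change rested on the other arrays alone. The arrays number 3 per group, and dim probes such as CBF1 and DDF2 are limited by signal over background.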
